A study of Homo sapiens with 30 samples.

Results

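CXCL9, CXCL10, CXCL11, CXCL12, CXCR4 and ACKR3 are 6 of the 63138 genes in the count table of this series. They were selected on their counts in the TNF, IL1b and Control libraries and then taken by gene symbol: the ligands of the receptor CXCR3 stood higher under TNF, and CXCL12 stood higher under IL1b. The values of the 6 genes in TNF against Control, IL1b against Control and IL1b against TNF are therefore given as descriptions, without a p. Tests are given for the comparisons that this choice did not use. Those that include Control reuse its libraries, which took part in the choice. CXCL10, CXCL11, CXCL12 and ACKR3 held enough counts to be tested, whereas CXCL9 and CXCR4 did not, so 4 of the 6 genes enter the tests. Among cells stimulated directly, ACKR3 held enough counts only in the TNF libraries. CXCL10 held enough counts in every library of a group only under TNF and IL1b, so it entered the direct tests through these groups.

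RNA was sequenced from hCMEC/D3, a human line of immortalised endothelial cells from brain microvessels, in 10 groups of 3 libraries at 12 h. In 5 groups the cells received serum-free medium alone (Control), TNF at 25 ng/mL, IL-1β (group IL1b) at 10 ng/mL, the complement fragment C5a at 50 ng/mL or epinephrine at 200 nM. In the other 5 groups the line received extracellular vesicles enriched from the medium of cells treated in one of these ways, and each of these groups is named EV- and the treatment of the source cells (EV-Control, EV-TNF and so on). All groups share this 1 immortalised line. The sources used here give no vesicle dose and do not say whether the 3 libraries of a group came from separate cultures, so the p-values below measure the spread between these libraries only. Library totals ran from 16643961 to 22112326 counts. Levels are given as CPM, counts scaled to a common library size by the library total and a TMM factor, and 3 counts, the limit that a count of 0 allows, correspond to 0.138 to 0.200 CPM. All 8 endothelial markers were present, with PECAM1 at a mean of 191 CPM and CDH5 at 225 CPM. From Control to TNF, PECAM1 went from 271 to 157 CPM and CDH5 from 269 to 426 CPM. The endothelial sum was 927 to 970 CPM in Control, 992 to 1039 under TNF and 697 to 721 under IL1b. It was 703 to 731 under C5a and 750 to 821 under Epinephrine. With vesicles it was 598 to 641 in EV-Control, 683 to 706 in EV-TNF and 677 to 715 in EV-IL1b. EV-C5a had 598 to 617 and EV-Epinephrine 669 to 699 CPM. Of the 6 leukocyte markers, PTPRC held 3 to 30 counts in every library, and the other 5 were at 0 in some libraries and reached at most 7 counts in any.

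CXCL9, CXCL10 and CXCL11 are chemokines that draw activated T cells and natural killer cells through CXCR3. They are classed as interferon-inducible, and CXCL10 and CXCL11 are also induced through NF-κB. CXCL12 is the homeostatic chemokine that binds CXCR4, a signalling receptor, and ACKR3, an atypical receptor that takes up CXCL12 and also CXCL11. At the blood-brain barrier, endothelial CXCR3 ligands are linked to T cell entry, while CXCL12 is linked to retention of leukocytes at the vessel and to vascular maintenance. CXCL9, CXCL10 and CXCL11 lie side by side on the minus strand of chromosome 4, and CXCL12 lies alone on chromosome 10.

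The upstream sequences of the 4 ligands are shown because the ligands split into those highest and the one lowest under TNF. Sequences are those of RefSeq on GRCh38.p14, where 5 of the 6 genes had a promoter window; each is the 250 bases before the transcription start, on the minus strand, written 5′ to 3′. Capitals mark matches to the NF-κB consensus, to the interferon-stimulated response element (GAAA, any 2 bases and GAAA again) and to the AP-1 site TGANTCA, searched on both strands. For CXCL11 only the stretch from its AP-1 match to its NF-κB match is printed, since 127 of the 250 bases lie in an exon annotated in GENCODE 29.
CXCL9 (chr4:76007510-76007759): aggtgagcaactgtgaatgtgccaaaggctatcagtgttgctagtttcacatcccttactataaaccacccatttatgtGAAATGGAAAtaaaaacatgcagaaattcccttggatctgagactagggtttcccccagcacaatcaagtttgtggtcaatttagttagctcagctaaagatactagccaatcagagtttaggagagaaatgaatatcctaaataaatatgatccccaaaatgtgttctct
CXCL10 (chr4:76023498-76023747): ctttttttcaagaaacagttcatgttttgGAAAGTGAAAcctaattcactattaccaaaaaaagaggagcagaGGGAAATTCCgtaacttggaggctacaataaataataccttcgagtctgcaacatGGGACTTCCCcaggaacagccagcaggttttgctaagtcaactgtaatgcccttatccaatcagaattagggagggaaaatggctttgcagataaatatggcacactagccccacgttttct
CXCL11 (chr4:76036137-76036157): TGACTCAaagaGGGAAATTCC
CXCL12 (chr10:44385098-44385347): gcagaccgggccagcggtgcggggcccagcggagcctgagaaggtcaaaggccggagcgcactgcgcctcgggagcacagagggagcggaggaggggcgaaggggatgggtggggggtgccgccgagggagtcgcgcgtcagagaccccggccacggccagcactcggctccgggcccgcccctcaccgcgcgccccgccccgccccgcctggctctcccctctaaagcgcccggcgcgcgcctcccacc

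CXCL10 held 2 matches to the NF-κB consensus, GGGAAATTCC from 177 to 168 bases and GGGACTTCCC from 122 to 113 bases before the start, and 1 response element, GAAAGTGAAA, from 221 to 212 bases. CXCL11 held GGGAAATTCC from 76 to 67 bases before the start, with TGACTCA from 87 to 81 bases, and TTCTAGGAA, a match to the STAT element (TTC, any 3 bases and GAA), from 240 to 232 bases. CXCL9 held GAAATGGAAA from 171 to 162 bases and no NF-κB match in this window. CXCL10 also held 1 match to ACGTG, the hypoxia element core, on the opposite strand. Neither these 2 motifs nor the 3 marked in capitals were found in the CXCL12 window, whose GC content was 78% against 38.4%, 40.8% and 37.2% for CXCL9, CXCL10 and CXCL11 and a median of 58% over all windows. CXCL12 held 3 matches to the GC box GGGCGG and none to the CCAAT box, while each of CXCL9, CXCL10 and CXCL11 held 1 match to CCAAT. The GC-box matches of CXCL12 and its 1 match to TGACG, the core of the cAMP response element, were on the opposite strand. Over 35116 windows of this length, 5.21% held the NF-κB consensus, 3.02% the response element, 6.57% TGANTCA, 6.57% the STAT element, 18.5% ACGTG, 21.2% TGACG, 32% CCAAT and 42.6% GGGCGG. A match is a run of letters and says nothing of binding in these cells.

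CXCL10 stood at 4382, 5861 and 5023 counts in the TNF libraries, against 8, 9 and 16 in Control. The IL1b libraries held 157, 102 and 126 counts. TNF thus lay far above IL1b, and IL1b above Control, with no overlap. As CPM these were 299 ± 13.6 (SD, n = 3) under TNF, 6.73 ± 1.35 under IL1b and 0.601 ± 0.26 in Control. The log2 fold change against Control was 8.96 (SE 0.23) for TNF, and without Control replicate 3 it was 9.35. For IL1b it was 3.49 (SE 0.37), and IL1b against TNF was -5.46 (SE 0.16). Of all tested genes, 52.7% passed the test between TNF and Control, 46.6% between IL1b and Control and 41.4% between IL1b and TNF.

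CXCL11 followed the same order at lower levels. It held 1671, 2177 and 1939 counts under TNF, 63, 91 and 50 under IL1b, and 12, 18 and 22 in Control. The groups did not overlap, as was also the case for CXCL10, and 59.5% of all tested genes did not overlap between TNF and Control, 56.3% between IL1b and Control and 51.5% between IL1b and TNF. The mean was 113 ± 2.99 CPM under TNF and 3.57 ± 1.11 CPM under IL1b, against 0.944 ± 0.301 CPM in Control. Log2 fold changes against Control were 6.91 (SE 0.15) for TNF and 1.93 (SE 0.24) for IL1b.

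CXCL9, the ligand most tied to interferon-γ, was counted almost only under TNF. The TNF libraries held 19, 17 and 11 counts, and all 3 Control libraries were at 0. The IL1b libraries held 3, 0 and 0 counts, and no library of any other group exceeded 4. TNF at 0.938 ± 0.317 CPM was at least 5.78-fold higher than Control, taking the floor of 3 counts per library for Control. All 30 libraries together gave 62 CXCL9 counts, against 15963 for CXCL10 and 6414 for CXCL11. Per kilobase of exon, under TNF, CXCL10 stood at 254, CXCL11 at 59.5 and CXCL9 at 0.343 RPKM, the CPM divided by the length of all exons in kilobases.

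**Figure D1:**
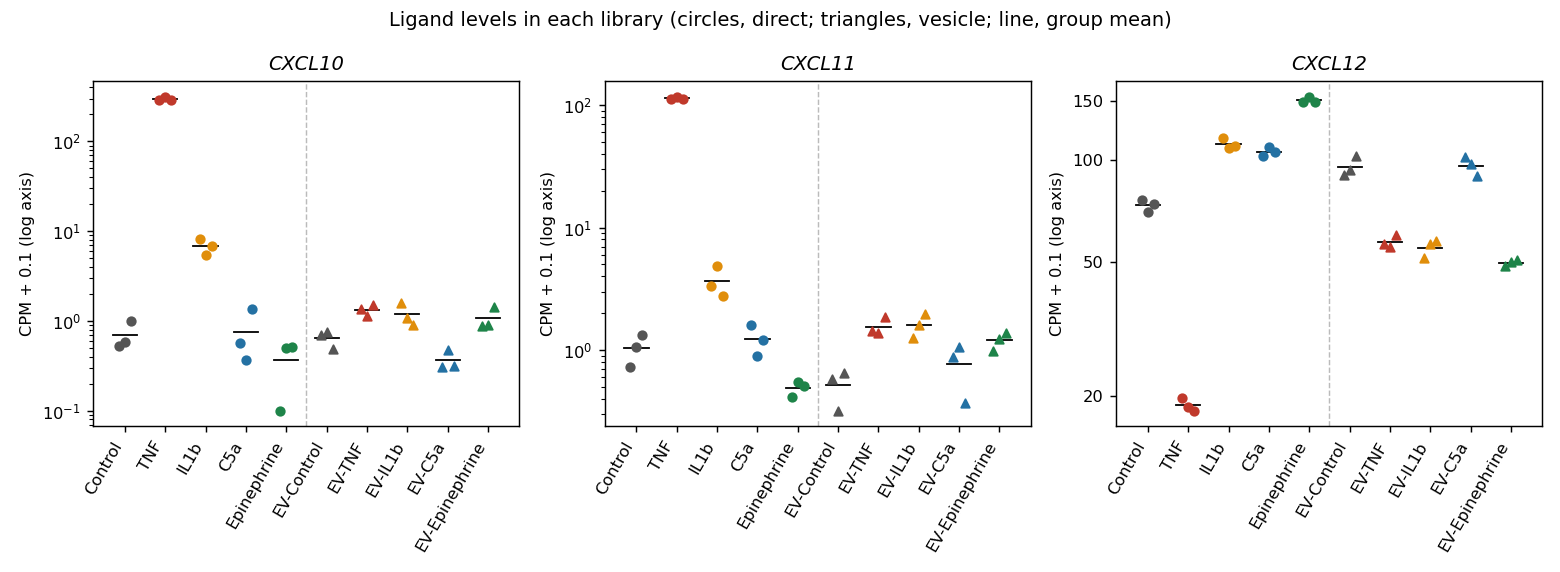
CPM of CXCL10, CXCL11 and CXCL12 in each of the 30 libraries on log axes with 0.1 added; circles are cells stimulated directly, triangles are cells given vesicles, and lines are means of 3 libraries. CXCL10 and CXCL11 are highest in the TNF libraries, at means of 299 and 113 CPM, where CXCL12 is lowest, at 18.7 CPM.

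CXCL12 behaved in the opposite way under TNF. Its counts were 295, 343 and 312 under TNF and 1440, 1314 and 1317 in Control. The IL1b libraries held 2257, 2058 and 2064 counts, above every Control library. The means were 18.7 ± 0.876 CPM under TNF, 73.4 ± 3.05 in Control and 112 ± 4.11 under IL1b. Against Control the level was 3.93-fold lower under TNF (log2 -1.98, SE 0.061), and the log2 change under IL1b was 0.61 (SE 0.052). IL1b against TNF came to 2.59 (SE 0.060). These 3 values were -2.25, 0.53 and 2.78 when libraries were scaled by their totals, which moved the median of all genes to -0.287 in TNF against Control and to 0.205 in IL1b against TNF. In RNA from whole cultures, fewer cells of a type and less RNA per cell cannot be told apart.

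Ordered by mean, CXCL12 ran from Epinephrine (151 ± 3.06 CPM) through IL1b, C5a (106 ± 3.19), EV-C5a (96.3 ± 6.36), EV-Control (95.6 ± 6.57), Control, EV-TNF (57.2 ± 2.42), EV-IL1b (55.01 ± 3.28) and, next to last, EV-Epinephrine (49.6 ± 1.09) to TNF. EV-C5a and EV-Control overlapped, as did EV-TNF and EV-IL1b, and both pairs of means lay within 1 SD. IL1b and C5a also overlapped in their libraries. CXCL10 and CXCL11 had TNF first and IL1b next, both apart from all other groups, and every other pair of neighbours overlapped. CXCL10 ran from 0.267 ± 0.092 CPM (EV-C5a) to 1.24 ± 0.2 CPM (EV-TNF) over those 8 groups. CXCL11 ran from 0.393 ± 0.0709 CPM (Epinephrine) to 1.51 ± 0.363 CPM (EV-IL1b).

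The level of CXCL12 per kilobase of exon, divided by that of CXCL11, gives the balance of the 2 ligands within a library. CXCL12 exceeded CXCL11 in 9 of the 10 groups. In Control the ratio lay between 18.8 and 37.7, and under TNF between 0.0495 and 0.0554. IL1b libraries lay between 7.1 and 12.96, so that their ratio was below Control although their CXCL12 was above it. Epinephrine ratios were 107 to 149. Among vesicle groups, EV-Control ran from 59.1 to 133, overlapping Epinephrine, and EV-TNF (10.7 to 13.6), EV-IL1b (9.59 to 13.96) and EV-Epinephrine (12.4 to 17.3) lay below it without overlap.

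**Figure D2:**
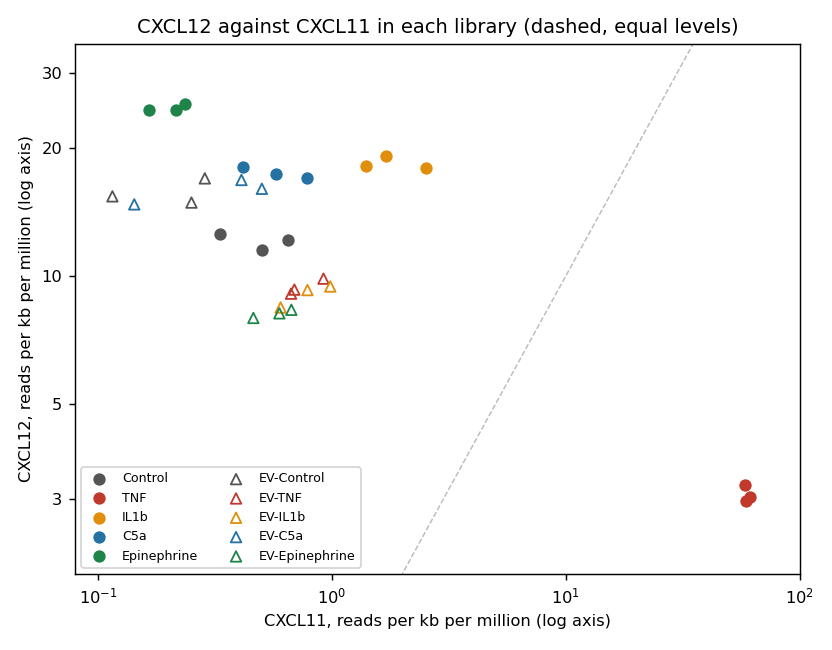
Level of CXCL12 against CXCL11 in each of the 30 libraries, in RPKM on log axes; filled circles are cells stimulated directly, open triangles cells given vesicles, and the dashed line marks equal levels. The 3 TNF libraries lie right of the line, with CXCL12 at 3.08 and CXCL11 at 59.5, and the vesicle groups EV-TNF, EV-IL1b and EV-Epinephrine lie together below EV-Control.

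CXCR4, the signalling receptor of CXCL12, was near the limit of detection. It had 18 counts over all 30 libraries, at most 3 in any 1, and 20 libraries were at 0. No level can be ordered between groups at this depth. CXCR3, the receptor of the other 3 ligands, had 2 counts in all, with 28 libraries at 0.

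ACKR3, the scavenging receptor, had 232 counts in all and at most 22 in a library. Counts were 8, 6 and 1 in Control, 10, 16 and 14 under TNF and 3, 1 and 1 under IL1b. TNF lay above both other groups, and IL1b overlapped Control. The log2 fold change was 1.51 (SE 0.59) for TNF, -1.54 (SE 0.83) for IL1b and -3.06 (SE 0.71) for IL1b against TNF, the last -3.71 without IL1b replicate 1. C5a libraries held 2, 1 and 0 counts and Epinephrine libraries 5, 8 and 7. ACKR3 thus passed the count filter of the direct libraries only through TNF. Its direct tests of C5a and epinephrine rest on at most 8 counts a library. In the vesicle groups counts ran from 3 to 22, and EV-Control by itself spanned 5 to 22. All neighbours in the order of the 10 group means of ACKR3 overlapped.

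**Figure D3:**
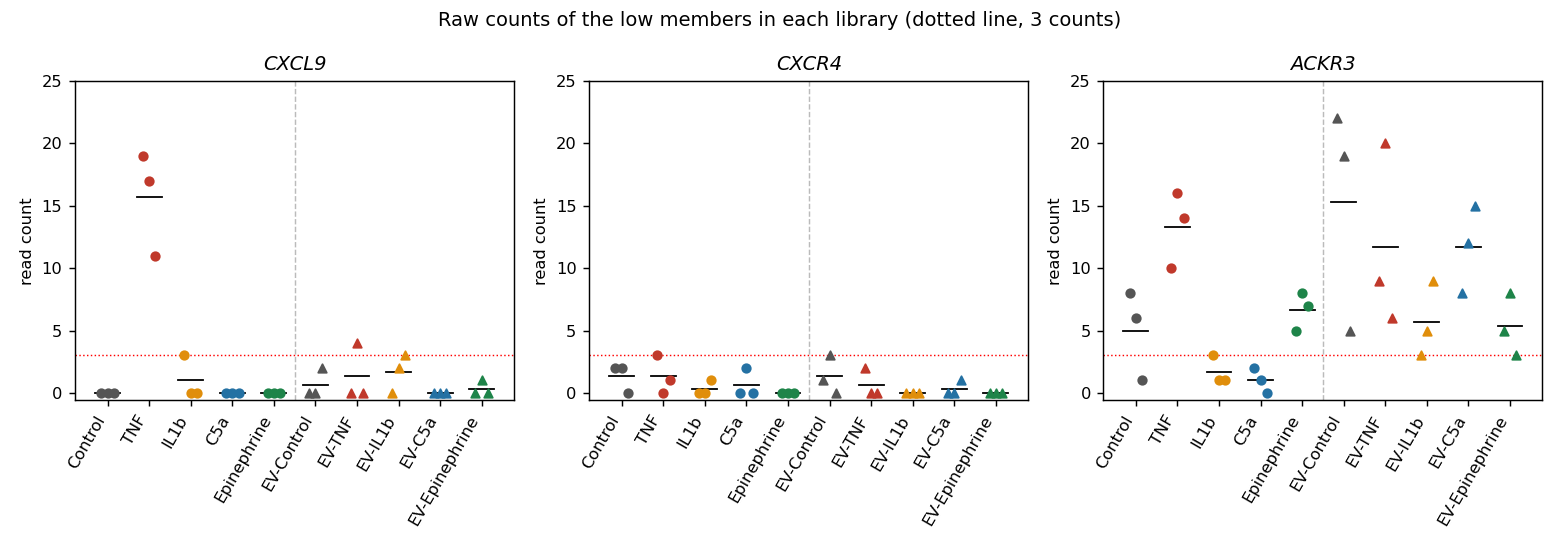
Read counts of CXCL9, CXCR4 and ACKR3 in each library, with means of 3 libraries as lines and 3 counts as a dotted line. CXCL9 stands above 4 counts only in the 3 TNF libraries, CXCR4 is at 3 counts or fewer in all 30, and ACKR3 reaches at most 22.

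C5a raised CXCL12 and left no call on the CXCR3 ligands. The C5a libraries held 1991, 2066 and 2102 CXCL12 counts, all above Control, 1.45-fold (log2 0.54, SE 0.052, edgeR adjusted p = 5.96e-10). In this comparison 22.6% of all tested genes were called, 11.8% upward, and 40.4% did not overlap. CXCL10 had 9, 5 and 25 counts, overlapping Control, with a log2 change of 0.18 (SE 0.63, 95% interval -1.06 to 1.42) and an edgeR adjusted p of 0.885. It had passed the count filter of the direct libraries only through TNF and IL1b. CXCL11 had 29, 15 and 22 counts and a log2 change of 0.28 (SE 0.30, edgeR adjusted p = 0.565). ACKR3 had a log2 change of -2.23 (SE 0.91, edgeR adjusted p = 0.0737). Without Control replicate 3 the latter was -2.69 with an adjusted p of 0.0326.

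Epinephrine raised CXCL12 further and lowered CXCL11. For CXCL12 the libraries stood at 2837, 2726 and 3245 counts, above every library of the other 9 groups. The level was 2.06-fold over Control (log2 1.05, SE 0.051, edgeR adjusted p = 2.75e-17). CXCL11 stood at 6, 8 and 9 counts, below all Control libraries, with a log2 change of -1.23 (SE 0.39, edgeR adjusted p = 0.0164). That adjusted p was 0.103 without Control replicate 3 and 0.0552 without Epinephrine replicate 1. CXCL10 stood at 0, 7 and 9 counts, and its log2 change of -1.10 (SE 0.78, edgeR adjusted p = 0.36) did not pass, although its CPM did not overlap Control. Of all tested genes 25.2% were called, 13.5% upward and 11.8% downward, and 33.9% did not overlap. ACKR3 gave 0.35 (SE 0.65, edgeR adjusted p = 0.753). Against C5a, where 17.1% of genes were called (8.98% upward and 8.08% downward), epinephrine gave CXCL12 a log2 difference of 0.51 (SE 0.050, edgeR adjusted p = 6.94e-10) and CXCL11 one of -1.51 (SE 0.37, edgeR adjusted p = 0.0028). ACKR3 differed by 2.58 (SE 0.87, edgeR adjusted p = 0.0348), and leaving out C5a replicate 2 or 3 or Epinephrine replicate 2 or 3 moved this adjusted p to between 0.066 and 0.162. The ACKR3 call was also lost with no low-count filter, and ACKR3 had passed that filter only through TNF. CXCL10 differed by -1.27 (SE 0.75, edgeR adjusted p = 0.303). As for C5a, CXCL10 entered these tests only through the TNF and IL1b libraries.

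Cells that received vesicles were set against EV-Control, so these comparisons share the EV-Control libraries. CXCL11 stood at a mean of 0.416 CPM in EV-Control, against 0.944 CPM in Control. CXCL10 and CXCL11 passed the count filter of the vesicle libraries only through EV-TNF, EV-IL1b and EV-Epinephrine. These are the vesicle groups where both stood highest, so their tests there are not independent of the filter. EV-TNF libraries held 1112, 1081 and 1056 CXCL12 counts and EV-Control libraries 1507, 1696 and 1882. CXCL12 was 1.67-fold lower (log2 -0.74, SE 0.056, edgeR adjusted p = 5.99e-16), and 13.3% of genes were called, 5.90% upward and 7.42% downward. CXCL11 rose 3.45-fold, from 8, 4 and 10 counts in EV-Control to 26, 25 and 31 (log2 1.78, SE 0.44, edgeR adjusted p = 0.00295). CXCL10 had 25, 20 and 25 counts in EV-TNF against 10, 12 and 7, without overlap, and its log2 change of 1.16 (SE 0.43, edgeR adjusted p = 0.0608) did not pass. Here 27.1% of genes did not overlap. ACKR3 gave -0.51 (SE 0.51, edgeR adjusted p = 0.594).

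With EV-IL1b, CXCL12 fell and CXCL11 rose as well. CXCL12 held 889, 1050 and 1008 counts, 1.74-fold below EV-Control (log2 -0.80, SE 0.056, edgeR adjusted p = 7.92e-17), in a comparison where 14.6% of genes were called, 6.49% upward and 8.14% downward, and 28.5% did not overlap. CXCL11 held 20, 28 and 33 counts, 3.6-fold above EV-Control (log2 1.85, SE 0.44, edgeR adjusted p = 0.00183). CXCL10 held 26, 18 and 14 counts (log2 0.98, SE 0.44, edgeR adjusted p = 0.133). ACKR3 gave -1.44 (SE 0.57, edgeR adjusted p = 0.0813), and -1.87 with an adjusted p of 0.018 without EV-Control replicate 3. CXCL12 under IL1b itself had been above Control in all 3 libraries; the 2 responses were fitted separately and their difference was not tested.

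EV-IL1b against EV-TNF compares vesicles of cells given either of the 2 cytokines, in libraries that the choice of genes did not use. These cells received vesicles and not the cytokines, so the contrast is not a repeat of IL1b against TNF. The log2 difference was -0.055 for CXCL12 (95% interval -0.168 to 0.058, edgeR adjusted p = 0.954), 0.063 for CXCL11 (-0.653 to 0.779, edgeR adjusted p = 1) and -0.18 for CXCL10 (-0.943 to 0.577, edgeR adjusted p = 0.985). For ACKR3 it was -0.93 (-2.08 to 0.225, edgeR adjusted p = 0.903). In CPM every one of the 4 genes overlapped between the groups, against 11.8% of all genes that did not. Only 1 gene, 0.00628% of those tested, was called between these vesicle groups.

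EV-Epinephrine gave the lowest CXCL12 of the vesicle groups. Its libraries held 934, 872 and 869 counts, 1.93-fold below EV-Control (log2 -0.95, SE 0.057, edgeR adjusted p = 8.83e-20). Of all genes 19.7% were called, 9.12% upward and 10.5% downward, and 34.1% did not overlap. CXCL11 held 17, 20 and 22 counts, all above EV-Control, and rose by 1.39 on the log2 scale (SE 0.46, edgeR adjusted p = 0.0229), a call lost without EV-Control replicate 2 (0.129), EV-Epinephrine replicate 2 (0.058) or replicate 3 (0.084). CXCL10 held 15, 14 and 23 counts (log2 0.82, SE 0.44, edgeR adjusted p = 0.207). ACKR3 held 5, 8 and 3 counts (log2 -1.54, SE 0.57, edgeR adjusted p = 0.0503). Without EV-Control replicate 3 or EV-Epinephrine replicate 2 the adjusted p of ACKR3 was 0.00982 or 0.0494.

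EV-C5a gave no call on the 4 genes. CXCL12 held 1952, 1827 and 1638 counts, overlapping EV-Control, with a log2 difference of 0.011 (95% interval -0.094 to 0.116, edgeR adjusted p = 0.983). CXCL11 (log2 0.69, SE 0.48), CXCL10 (-1.01, SE 0.54) and ACKR3 (-0.48, SE 0.51) had edgeR adjusted p of 0.802, 0.686 and 0.898. In all, 8 genes (0.0503%) were called here, and 175 without EV-Control replicate 3. The CPM of CXCL10 lay below EV-Control without overlap, at 0.209 to 0.373 against 0.383 to 0.661, and 10.9% of all genes did not overlap.

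Vesicles of cells kept in medium alone were compared with medium alone. CXCL12 was 1.3-fold higher in EV-Control, without overlap (log2 0.38, SE 0.054, edgeR adjusted p = 1.06e-07). CXCL11 fell by 1.17 on the log2 scale (SE 0.40, edgeR adjusted p = 0.0266), a call lost without Control replicate 2 (0.0681), Control replicate 3 (0.156) or EV-Control replicate 2 (0.17). ACKR3 rose by 1.67 (SE 0.60, edgeR adjusted p = 0.0346) with overlapping counts, and that call was lost without Control replicate 2 (0.0709) or 3 (0.2) or EV-Control replicate 1 (0.225) or 2 (0.115). CXCL10 gave -0.12 (SE 0.55, edgeR adjusted p = 0.91). Of all genes 21.9% were called, 12.1% upward and 9.80% downward, and 34.9% did not overlap.

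**Figure D4:**
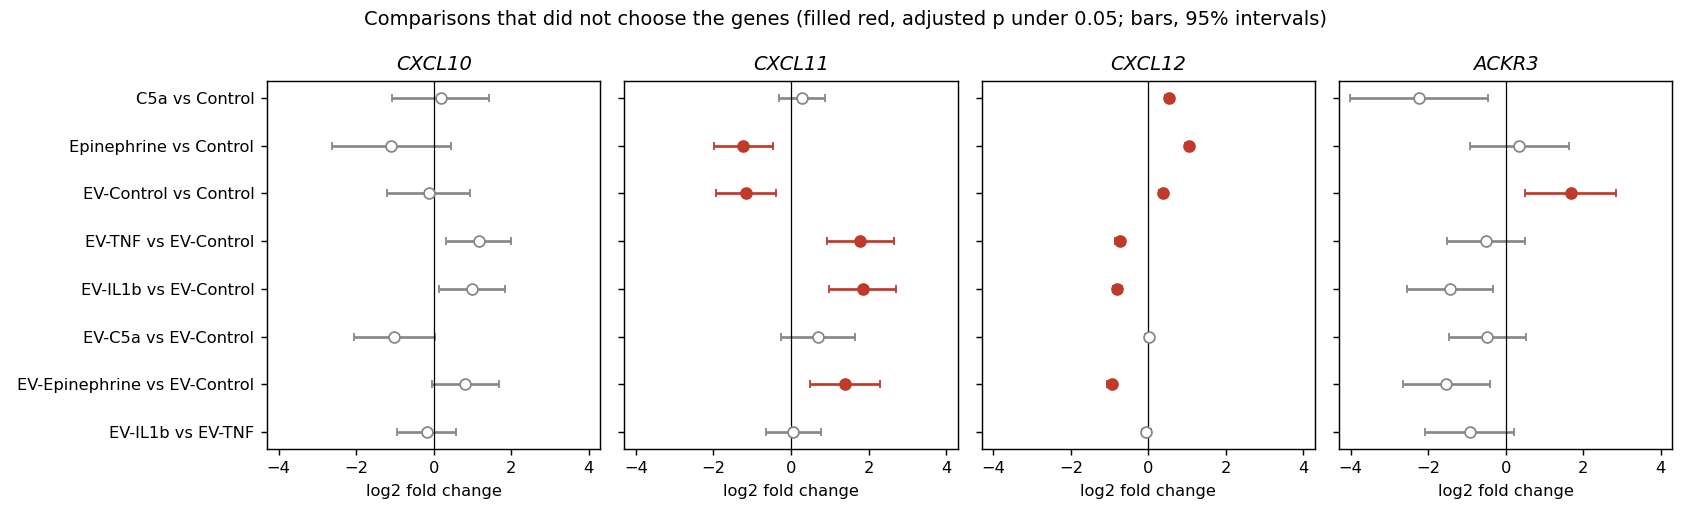
Log2 fold changes of CXCL10, CXCL11, CXCL12 and ACKR3 in 8 comparisons that did not choose the genes, with bars spanning 95% intervals. Those against Control reuse libraries that took part in the choice. Red filled points had an edgeR adjusted p under 0.05. CXCL12 lies above 0 for C5a, Epinephrine and EV-Control and below 0 for EV-TNF, EV-IL1b and EV-Epinephrine, while CXCL11 lies above 0 in those 3 vesicle groups. CXCL10 and CXCL11 passed the count filter of the vesicle libraries only through those 3 groups. Among the direct libraries CXCL10 passed only through TNF and IL1b, and ACKR3 only through TNF.

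The vesicle response was compared with the direct response in a fit of all 30 libraries. For epinephrine the CXCL12 responses differed by -1.98 on the log2 scale (SE 0.077, edgeR adjusted p = 7.52e-30), being upward directly and downward with vesicles. CXCL11 differed by 2.63 (SE 0.55, edgeR adjusted p = 0.000172), in the opposite sense. CXCL10 differed by 1.92 and did not pass (edgeR adjusted p = 0.0844), though it did with no low-count filter (0.00509) and with DESeq2 (0.0185). ACKR3 differed by -1.88 (edgeR adjusted p = 0.124), and 24.2% of genes were called, 11.7% upward and 12.5% downward. For C5a the CXCL12 responses differed by -0.52 (SE 0.075, edgeR adjusted p = 7.16e-07), while CXCL10 (-1.18), CXCL11 (0.43) and ACKR3 (1.76) had edgeR adjusted p of 0.431, 0.698 and 0.326. Of all genes 11.9% were called for C5a, 5.87% upward and 6.05% downward.

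Markers of other cell types were read beside CXCL12. The 5 pericyte and smooth muscle markers were all counted in every library, led by CSPG4 (a mean of 338 CPM) and PDGFRB (67.8 CPM), with ACTA2 at 2.53 and MYH11 at 1.26 CPM. Their sum was 371 to 423 CPM in Control, 464 to 485 under TNF, 334 to 350 under IL1b, 347 to 370 under C5a and 321 to 350 under Epinephrine. With vesicles it was 418 to 438 in EV-Control, 445 to 456 in EV-TNF, 451 to 476 in EV-IL1b, 407 to 420 in EV-C5a and 492 to 510 in EV-Epinephrine. The sum mostly follows CSPG4, which stood at 324 CPM in Control and 429 CPM under TNF, whereas PDGFRB went from 68.1 to 35.1, RGS5 from 7.85 to 5.37, ACTA2 from 3.04 to 2.75 and MYH11 from 1.23 to 0.914 CPM. The part of these markers in the CXCL12 result was not tested. Among 5 astrocyte and neuron markers AQP4 was at 0 in all libraries, while GFAP held 12 to 108 counts, at 3.27 CPM in Control and 1.49 CPM under TNF. Of the epithelial markers, KRT18 stood at a mean of 262 CPM, and EPCAM, CDH1 and KRT5 held at most 7 counts in any library. The epithelial sum was 240 to 263 CPM in Control, 148.5 to 159 under TNF and 260 to 262 under IL1b. It was 330 to 342 under C5a and 248 to 288 under Epinephrine. Over the vesicle groups it ran from 256.5 (EV-C5a) to 297.5 CPM (EV-TNF). Its part in the CXCL12 result was not tested.

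The interferon route to the CXCR3 ligands was followed in a list of 19 genes, 18 of them tested. This list and those below were chosen with earlier results of these data known. Their counts are therefore descriptions and not independent support. IFNB1, the β interferon itself, passed the count filter of the direct libraries only through TNF, with 26, 31 and 14 counts there and at most 4 in any other direct library, so it is left out of the counts that follow. Under TNF all 17 others rose (median log2 change 1.55, against -0.0123 over all genes, of which 27.5% rose). With IFNB1 18 rose, and 16 of these with scaling by totals. The largest were IRF1 (3.17), an interferon-regulated transcription factor, USP18 (2.67) and SOCS1 (2.34), feedback inhibitors. Under IL1b 13 rose and none fell (12 and 1 with scaling by totals), with SOCS3 at 1.77, USP18 at 1.42 and IRF7 at 1.08, against 24.0% of all genes. Between the cytokines, 15 were lower with IL1b and none higher, IRF1 by -2.35; 19.9% of all genes were higher and 21.4% lower.

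Under C5a 2 genes of the interferon list rose, USP18 and JAK2, and under epinephrine 3 rose and 4 fell. Over all genes 11.8% rose under C5a, and 13.5% rose and 11.8% fell under epinephrine, so the rises are near the background. IRF1 rose by 1.14 with epinephrine, while USP18 (-0.42), IRF7 (-0.34) and STAT2 (-0.32) fell. In the vesicle groups the list split. With EV-TNF 6 genes rose and 4 fell, with EV-IL1b 6 and 3, and with EV-Epinephrine 5 and 5, against 5.90%, 6.49% and 9.12% of all genes upward and 7.42%, 8.14% and 10.5% downward. USP18 (0.81) and IRF7 (0.63) rose with EV-TNF, where SOCS1 (-1.58) and IRF1 (-0.97) fell. IRF1 spread widely in EV-Control, from 92.8 to 192 CPM. Its mean there was 131 CPM, against 42.5 CPM in Control, and SOCS1 stood at 3.63 against 1.16 CPM. The falls of both genes start from this higher level. In EV-TNF, IRF1 was at 66.7 CPM, while SOCS1 at 0.794 to 1.63 CPM overlapped Control. EV-TNF against Control was not tested. EV-Control against Control raised 4 genes of the list and lowered 1, against 12.1% and 9.80% of all genes. EV-C5a had no call on the list.

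The NF-κB route was followed in 11 genes, all tested. All 11 rose under TNF (median log2 change 1.37), against 27.5% of all genes, led by TNFAIP3 (4.45), the feedback inhibitor A20, then RELB (2.80), NFKB2 (2.45) and IKBKE (2.22). Under IL1b 8 rose, against 24.0% of all genes, and none fell, with TNFAIP3 at 1.51. All 11 were lower with IL1b than with TNF, against 21.4% of all genes, 10 of them passing when libraries were scaled by totals. C5a lowered 6, against 10.8% of all genes, and raised none, with NFKBIZ at -2.31, NFKBIA at -1.92 and TNFAIP3 at -1.70. Epinephrine raised 4 and lowered 1, against 13.5% and 11.8% of all genes, with TNFAIP3 at 2.05 and RELB at -0.32.

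In the vesicle groups the NF-κB list went down where CXCL11 went up. EV-TNF lowered 7, EV-IL1b 8 and EV-Epinephrine 8 of the 11, and none rose, against 7.42%, 8.14% and 10.5% of all genes that fell. TNFAIP3 changed by -1.54, -1.54 and -3.06 and NFKBIA by -1.04, -1.15 and -1.98. TNFAIP3 itself stood at 217 to 437 CPM in EV-Control, above the 54.1 to 73.3 CPM of Control, and at 36.5 to 41.2 CPM in EV-Epinephrine. These comparisons share the EV-Control libraries. EV-Control against Control raised 6 of the 11 and lowered none, against 12.1% and 9.80% of all genes, TNFAIP3 by 2.32 and REL by 1.23.

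**Figure D5:**
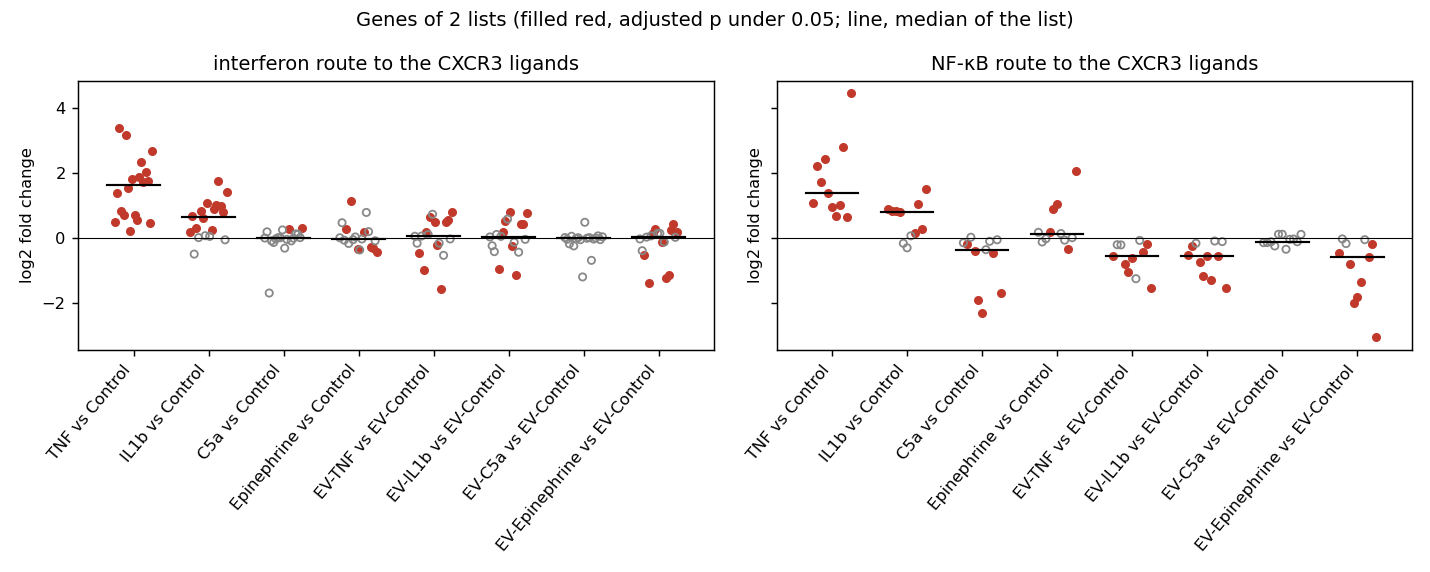
Log2 fold changes of the tested genes of the interferon list (18 genes) and of the NF-κB list (11 genes) in 8 comparisons; red filled points had an edgeR adjusted p under 0.05 and lines are medians, with IFNB1 included. Under TNF all points lie above 0, and in EV-TNF, EV-IL1b and EV-Epinephrine the NF-κB points that passed lie below 0.

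Genes of CXCR4 and ACKR3 signalling, turnover and shared ligands made a list of 18, of which 16 were tested. Under TNF 6 rose and 6 fell, against 27.5% and 25.3% of all genes, and 2 and 10 with scaling by totals, where GNAI2 changed its direction. CD74, the receptor of MIF, rose most (4.69), from 1.33 to 34.7 CPM, and HIF1A, the hypoxia factor known to act on CXCL12 and CXCR4, rose by 1.04. The β-arrestin genes ARRB2 (-0.71) and ARRB1 (-0.64) fell. HIF1A also rose under IL1b (0.89) and epinephrine (0.70) and fell with EV-TNF (-0.37), EV-IL1b (-0.39) and EV-Epinephrine (-0.41). DPP4, the peptidase that trims CXCL12 and the CXCR3 ligands, rose under TNF (0.41) and IL1b (0.54) and fell under C5a (-0.37) and epinephrine (-0.41). In EV-TNF and EV-IL1b 1 gene rose and 3 fell, and in EV-Epinephrine 1 rose and 5 fell. The rises are near the 5.90%, 6.49% and 9.12% of all genes that rose there, and 7.42%, 8.14% and 10.5% fell. MIF held at most 9 counts in any library and was not tested. The annotation and counting program are not given, so whether these counts reflect the level of MIF in the cells cannot be told.

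Heparan sulphate holds chemokines on the endothelial surface. Of 15 tested genes of its core proteins and enzymes, 4 rose and 9 fell under TNF (3 and 11 with scaling by totals, where EXT2 changed its direction), and 3 rose and 8 fell under IL1b. Over all genes 27.5% rose and 25.3% fell under TNF, and 24.0% rose and 22.6% fell under IL1b, so the rises are near the background. SULF1, a sulphatase that edits the chains, rose under both (1.60 and 1.41), and SDC1, a syndecan, fell under both (-1.54 and -0.77). EXT1, a chain-building enzyme, rose by 1.13 under TNF. C5a raised 1 and lowered 3, and epinephrine raised 2 and lowered 5, against 11.8% up and 10.8% down and 13.5% up and 11.8% down over all genes, with SULF1 up in both (0.53 and 0.36). With vesicles, 0, 3 and 4 genes rose and 2, 2 and 4 fell in EV-TNF, EV-IL1b and EV-Epinephrine, where 5.90%, 6.49% and 9.12% of all genes rose and 7.42%, 8.14% and 10.5% fell, with SDC4 down in each (-0.44, -0.45 and -0.66).

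Of 10 other chemokines and receptors, 3 were tested, and all 3 rose under TNF, against 27.5% of all genes. ACKR4, an atypical receptor, rose by 2.63 under TNF and 1.34 under IL1b. CXCL16, a membrane-bound chemokine, rose by 1.46 under TNF and fell by 0.72 under epinephrine. ACKR1, which carries inflammatory chemokines across endothelium, rose by 1.21 under TNF and stood at 0.70 under IL1b (edgeR adjusted p = 0.0905).

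The position of the genes was read from GENCODE 29 on GRCh38, the build the submitters' processing notes name as hg38. CXCL9 (ENSG00000138755) spans chr4:76001275-76007488, CXCL10 (ENSG00000169245) chr4:76021117-76023497 and CXCL11 (ENSG00000169248) chr4:76033682-76041415. CXCL12 (ENSG00000107562) spans chr10:44370165-44386493, and CXCR4 (ENSG00000121966) chr2:136114349-136118165, all 5 on the minus strand. ACKR3 (ENSG00000144476) spans chr2:236567787-236582358 on the plus strand. ART3 runs over CXCL10 and CXCL11 on the other strand and shares 0 exon bases with either in this annotation; it held 15, 7 and 5 counts under TNF and at most 2 in every other library. Whether counting used the strand is not given in the sources used here. Of 9 neighbours of the cluster, 5 were tested, and under TNF 4 rose, among them STBD1 (1.32), SCARB2 (0.84) and SDAD1 (0.62), while NAAA fell by 0.53, against 27.5% and 25.3% of all genes. With scaling by totals 3 of them rose.

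Genes most like each of the 4 detected genes were ranked among 12759 genes by Pearson correlation of log2 CPM over the 30 libraries, which form 10 groups, so that the values mostly reflect group means and are given as a description. CXCL10 was most like TDRD7 (0.989), IFI35 (0.986), SP100 (0.983), UBE2L6 (0.982) and TAP1 (0.982), and CXCL11 most like GBP4 (0.982), SAMD9L (0.981), CNP (0.979), TAP1 (0.978) and MYD88 (0.978). CXCL12 was most like LPCAT1 (0.947), SCP2 (0.932), TUBA4A (0.914) and PFKM (0.900). LPCAT1 stood at 279 CPM in Control, 134.5 under TNF and 335 under Epinephrine. ACKR3 was most like RHOV (0.912), IRF2BP2 (0.858), CHMP1B (0.848), HES4 (0.838) and KLHL15 (0.837). CXCR4 was below the count filter and was not ranked.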

How the data were processed

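Gene counts of 30 libraries were deposited by the authors as 1 table of raw counts per Ensembl gene, without normalization. Per the labels' protocols, libraries were made from total RNA with an NEBNext kit; the submitters' processing notes name STAR, FastQC, DESeq2, R 4.4.1 and the build hg38. The annotation, the counting program and its strand setting are not given in the sources used here. The 4 lines without a gene ID held 0.00079% to 0.0016% of a library and were left out, as were 2 genes whose lines held no counts.

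Counts were fitted in R 4.3.3 with edgeR 4.0.16: filterByExpr, TMM factors, robust quasi-likelihood tests, two-sided, with Benjamini-Hochberg adjustment over all genes of a fit and a threshold of 0.05. The 15 direct libraries (15908 genes), the 15 vesicle libraries (15918) and all 30 (16691) had a fit each. Intervals are normal 95% intervals from the SE. Floors of 3 counts cover counting error only. The 6 genes and all lists were chosen with earlier results of these data known. Up to 4 genes of a list were named per comparison, those with the largest called change that reached a group mean of 1 CPM. CXCR3, DPP4, MIF, ACKR1, IRF1 and ART3 were named whether called or not, though not in every comparison. TNFAIP3, HIF1A, DPP4, SULF1 and NFKBIA are also followed across comparisons, which was chosen after their values were seen. Single values of 2 genes that the naming rules include are not reported here. Alternatives were RLE factors, scaling by totals, no filter, DESeq2 1.42.0, a replicate term and leaving out each library. Tested on simulated data for C5a against Control with 200 changed genes among 15361, the edgeR step found 83% of changes of log2 1 and 98% of log2 2, with 10 false calls. The simulation gave every gene the same spread between replicates, so these rates may not hold for genes or groups with more spread. Replicate pairs differed beyond sampling noise (chi-square per gene 2.04 to 12.9). All libraries carry 1 batch number in the labels.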

Additional observations from a re-analysis of the deposited data

Results flagged for a closer look

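The CXCL12 responses to epinephrine given directly and to vesicles of epinephrine-treated cells differed by -1.98 on the log2 scale by a test of the difference (edgeR adjusted p = 7.52e-30), the one upward in 3 of 3 libraries and the other downward in 3 of 3. CXCL11 differed in the opposite sense, by 2.63 (edgeR adjusted p = 0.000172). For C5a the CXCL12 responses differed by -0.52 (edgeR adjusted p = 7.16e-07). For IL1b, the fitted change of CXCL12 was 0.61 against Control, with all 3 IL1b libraries above Control, and -0.80 against EV-Control, with all 3 EV-IL1b libraries below EV-Control; this difference was not tested, since the direct contrast took part in choosing the gene.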

How the results depend on the processing

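CXCL12 kept its direction and its call under every alternative run in the comparisons that called it, and so did CXCL11 in EV-TNF, EV-IL1b, Epinephrine against C5a and the epinephrine difference. With 1 library left out, 438 values were the same, 11 changed sign, 11 moved, 16 lost and 4 gained a call. Scaling by totals moved CXCL12 to -2.25 (TNF), 0.531 (IL1b) and 2.78 (IL1b against TNF), moved the median of all genes to -0.287 under TNF, and changed the share of called genes that were higher from 52.1% to 22.7% under TNF, 51.5% to 38.7% under IL1b, 48.1% to 76.1% between them, 46.4% to 60.2% in EV-Epinephrine and 55.3% to 42.6% in EV-Control against Control. EV-C5a called 8 genes, 5 with scaling by totals, 73 without a filter and 2 with DESeq2. EV-IL1b against EV-TNF called 1 gene, 3 with scaling by totals, 23 without a filter and 0 with DESeq2 (770 at an unadjusted p under 0.05, and 978 with edgeR). ACKR3 lost its call without a filter in Epinephrine against C5a (2.58, adjusted p = 0.0843) and in EV-Control against Control (1.68, adjusted p = 0.073), there also with DESeq2 (1.71, adjusted p = 0.0756), and gained one in EV-Epinephrine with RLE factors (-1.54, adjusted p = 0.0492). The CXCL10 difference for epinephrine passed without a filter (1.91, adjusted p = 0.00509) and with DESeq2 (1.96, adjusted p = 0.0185). For 6 results of genes near the floor DESeq2 gave no adjusted p and no value is given.

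With 1 library left out, log2 values ran as follows. ACKR3 ran from -3.08 to -1.69 (C5a), 2.04 to 3.43 (Epinephrine against C5a), -0.105 to 0.836 (Epinephrine), 1.22 to 2.16 (EV-Control against Control), -1.97 to -1.14 (EV-Epinephrine), -1.95 to -1.04 (EV-IL1b) and -3.71 to -2.81 (IL1b against TNF). CXCL10 ran from -0.682 to 0.572 (C5a), -0.316 to 0.276 (EV-Control against Control) and 8.76 to 9.35 (TNF). CXCL11 ran from -1.45 to -0.998 (Epinephrine), -1.42 to -0.851 (EV-Control against Control), 1.08 to 1.65 (EV-Epinephrine) and -0.121 to 0.222 (EV-IL1b against EV-TNF). CXCL12 in EV-C5a ran from -0.0314 to 0.0732. Called genes ran from 2 to 175 (EV-C5a) and 0 to 3 (EV-IL1b against EV-TNF). The 11 changes of sign were CXCL10 in C5a (-0.019 without Control replicate 1, -0.682 without C5a replicate 3), ACKR3 in Epinephrine (-0.105 without Control replicate 3), CXCL10 in EV-Control against Control (0.276 without Control replicate 3, 0.0869 without EV-Control replicate 3), CXCL12 in EV-C5a (3 libraries) and CXCL11 in EV-IL1b against EV-TNF (3 libraries), none of them called.

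Same-numbered libraries of different groups did not deviate together (correlations -0.145 to 0.136 direct, -0.157 to 0.0986 with vesicles). These values give no sign that the numbers pair the libraries. They cannot exclude a shared origin with an effect that is small or limited to few genes. With the replicate block, EV-IL1b against EV-TNF called 3 genes, CXCL12 in EV-TNF was -0.743, and no call on the 4 tested genes changed. At this depth CXCR4 cannot be ordered between groups, nor CXCL9 between groups other than TNF.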
